A study of Mus musculus with 18 samples.

Results

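Interferon-induced genes, with the interferon regulatory factors (IRFs) and the STAT proteins that carry the interferon signal, were compared between endothelial and other cells of the growing mouse retina. The genes were chosen by symbol: names beginning with Ifi (which takes in Ifit and Ifitm), Gbp with a number, Oas, Isg or Irgm, the numbered Irf and Stat genes, Mx1 and Mx2, Igtp and Usp18. A gene counted where a probe set carried its symbol alone, and its brightest probe set stood for it. This gave 60 of the 15964 genes measured, held by 83 probe sets, with 38 genes read on chip A, 15 on chip B and 7 on chip C.

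GFP-positive and GFP-negative cells were sorted by flow cytometry from pooled, papain-dissociated retinas of homozygous Tie2-GFP mice of the FVB/N strain at postnatal day 8. All animals carried the transgene, in which the Tie2 promoter drives GFP, so GFP-positive cells are endothelial only as far as that promoter is confined to endothelium, and the GFP-negative cells are a mixture of the other retinal cells. Amplified RNA was hybridised to the 3 Affymetrix MGU74v2 chips with 3 arrays per population and chip, 18 arrays in all. Whether the triplicate arrays are separate animals or repeats of 1 RNA pool is not stated in the labels, and each p-value therefore covers array-to-array spread alone, possibly technical.

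Interferons bind cell-surface receptors whose JAK kinases phosphorylate STAT proteins. Type I interferon joins STAT proteins to IRF9, a complex that binds the interferon-stimulated response element (ISRE) of its target genes, and interferon gamma drives STAT dimers to the gamma-activated site (GAS). The targets include GTPases that attack pathogen vacuoles, membrane proteins that block virus entry, RNA sensors and enzymes that degrade RNA, and endothelial cells are known to respond to both kinds of interferon.

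Of the GFP-positive arrays, replicate 3 was unlike its partners. Its rank correlation with the other GFP-positive arrays of a chip was 0.911 to 0.929, against 0.960 to 0.987 for the other pairs of arrays of 1 population. Array medians ranged from 43.3 to 44.5 on chip A, from 40.7 to 44.6 on chip B and from 32.5 to 34.4 on chip C, in intensity units. Among endothelial markers, 9 of 10 were higher in GFP-positive cells and their summed intensity was 11790 to 14250 on the GFP-positive arrays, against 229 to 280 on the GFP-negative arrays. The exception was Pecam1, whose difference was -0.05 on the log2 scale.

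Of the 60 interferon-related genes, 16 were higher in GFP-positive cells and 0 were lower at an adjusted p under 0.05, which is 26.7% and 0% of them. Over all 15964 genes 9.89% were higher and 12.2% were lower. The differences, GFP-positive minus GFP-negative, are in log2 of intensity plus 16, were tested with limma and had their p-values adjusted over the chip. At an unadjusted p under 0.05, 24 of the 60, or 40%, were higher and 0 lower, against 18.1% and 18.2% of all genes. The median difference of the 60 genes was 0.17, against 0.04 over all genes, and 50 of the 60, or 83.3%, lay above 0, against 55.9% of all genes. Without GFP-positive replicate 3 the counts were 19 higher and 1 lower of the 60, with 15% of all genes higher and 17.4% lower. Every GFP-positive array lay above every GFP-negative array for 24 of the 60 genes, or 40%, against 22.3% of all genes, and the reverse held for 0 of them, against 19.4% of all genes. In sorted bulk RNA, more cells of a type and more RNA per cell cannot be told apart.

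**Figure D1:**
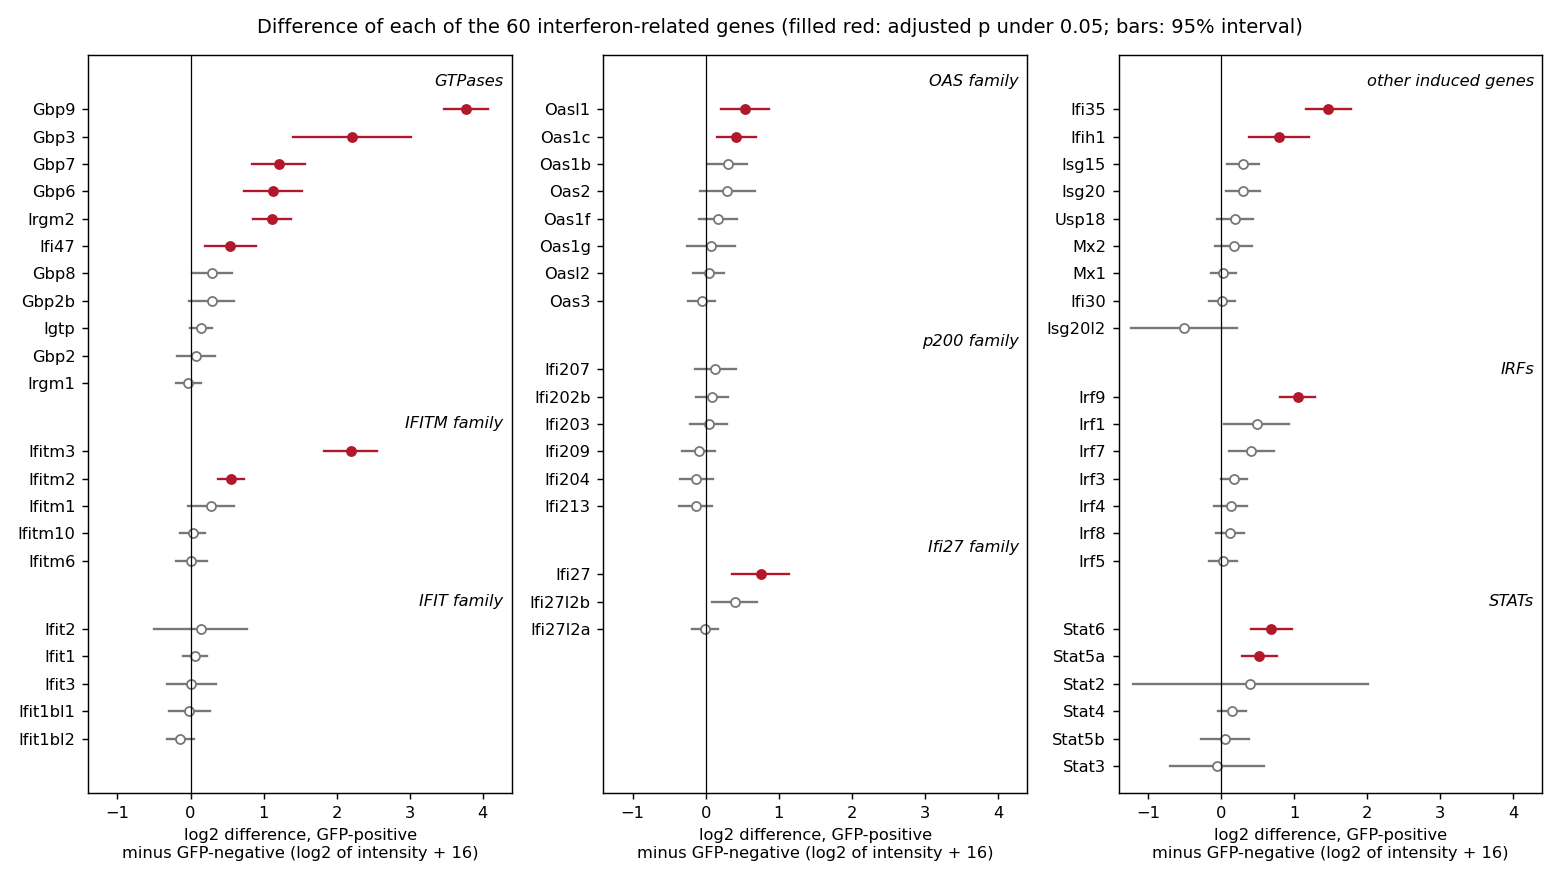
Difference between GFP-positive and GFP-negative cells for each of the 60 interferon-related genes by family, in log2 of intensity plus 16, with its 95% interval; filled red points passed the threshold. The 16 red points all lie right of 0, from Oas1c at 0.42 to Gbp9 at 3.77, and the 5 IFIT genes and 6 genes of the p200 family show none.

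Of the called genes whose promoter held an ISRE-like match, the 4 with the largest differences are shown, so the match itself was a condition of the choice. Gbp9 and Gbp6 had no promoter available, and that of Ifi35 (difference 1.47) held a GAS-like match at 7 and no ISRE-like one. The promoters come from RefSeq on GRCm38.p6 and are written 5′ to 3′ on the gene's strand. They run from 250 bases before to 50 bases after an annotated start of the gene. The start used for Gbp3 lies inside the gene, whose first listed base is chr3:142560016. Capitals mark the ISRE-like letters (GAAA, any 2 bases, GAAA, on either strand) and the GAS-like letters (TTC, any 3 bases, GAA, which reads alike on both strands).
Gbp3, chr3:142559794-142560093, + strand: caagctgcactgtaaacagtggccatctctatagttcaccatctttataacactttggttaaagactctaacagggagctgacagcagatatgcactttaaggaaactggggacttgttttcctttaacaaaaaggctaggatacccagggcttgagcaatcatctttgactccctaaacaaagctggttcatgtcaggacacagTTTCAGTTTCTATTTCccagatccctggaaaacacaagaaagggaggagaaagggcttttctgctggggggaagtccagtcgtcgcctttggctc
Ifitm3, chr7:141010695-141010994, - strand: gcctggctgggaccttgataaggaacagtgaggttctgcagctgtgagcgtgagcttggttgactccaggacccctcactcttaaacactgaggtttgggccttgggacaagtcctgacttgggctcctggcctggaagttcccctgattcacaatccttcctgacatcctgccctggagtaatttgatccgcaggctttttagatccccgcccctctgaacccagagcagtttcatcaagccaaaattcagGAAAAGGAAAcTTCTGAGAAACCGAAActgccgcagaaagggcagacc
Gbp7, chr3:142530086-142530385, + strand: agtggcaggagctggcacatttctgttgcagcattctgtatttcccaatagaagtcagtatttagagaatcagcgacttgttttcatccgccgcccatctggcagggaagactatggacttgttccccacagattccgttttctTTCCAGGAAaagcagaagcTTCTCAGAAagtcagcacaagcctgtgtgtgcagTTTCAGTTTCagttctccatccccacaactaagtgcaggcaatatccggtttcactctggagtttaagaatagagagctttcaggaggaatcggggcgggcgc
Irgm2, chr11:58214727-58215026, + strand: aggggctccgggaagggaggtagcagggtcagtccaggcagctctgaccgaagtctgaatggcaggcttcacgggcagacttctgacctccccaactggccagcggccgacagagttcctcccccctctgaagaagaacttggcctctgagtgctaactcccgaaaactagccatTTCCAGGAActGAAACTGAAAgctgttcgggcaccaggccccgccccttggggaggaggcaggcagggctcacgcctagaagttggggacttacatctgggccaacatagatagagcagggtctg
The Gbp3 promoter holds overlapping ISRE-like matches at positions -45 and -39 from the start used, Gbp7 holds 1 at -53 and Irgm2 1 at -64. In Ifitm3 the matches lie at 2 and 19, after the annotated start, and the GAS-like match at 13 overlaps the match at 19. Gbp7 has GAS-like matches at -106 and -87, and Irgm2 has 1 at -75.

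Of the 60 genes, 48 had a promoter in the table (not Gbp6, Gbp8, Gbp9, Ifi204, Ifi27, Ifi27l2a, Ifi27l2b, Mx1, Mx2, Oas1b, Oas2 and Usp18), and 23 of these, or 47.9%, held an ISRE-like match, against 3.99% of the promoters of all 27025 genes. A GAS-like match was in 11 of the 48, or 22.9%, against 9.55% of all genes. The ISRE-like match was in 7 of 13 promoters of genes higher in GFP-positive cells and in 16 of 35 promoters of genes that did not pass. By family it was in 7 of 8 GTPase promoters, 4 of 5 IFIT promoters and 0 of 7 IRF promoters. A match describes these letters in this window and is not evidence of binding.

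The interferon-inducible GTPases are known in mouse for attacking the vacuoles of intracellular pathogens. In this family 6 of 11 were higher in GFP-positive cells, against 9.89% of all genes, with a family median of 0.55. Of these 6, 4 were guanylate-binding proteins and 1 was Irgm2. The other was Ifi47, an IRG GTPase that was placed with this family after its value was seen. The family median is the difference of Ifi47 itself, so the count and the median both depend on that placement. Guanylate-binding proteins share near-identical stretches, so a probe set may read more than 1 of them.

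Gbp9 had the largest difference. It read 411, 401 and 522 intensity units on the GFP-positive arrays, against 15.9, 19.6 and 17.3 on the GFP-negative arrays. The difference was 3.77 ± 0.13 (SE, as after every ± below; adjusted p 1.75e-05), and the lowest GFP-positive array lay far above the highest GFP-negative one. Gbp3 read 230.4, 165 and 81.0 on the GFP-positive arrays, against 19.2, 19.6 and 19.2 on the GFP-negative arrays, a difference of 2.20 ± 0.33 (adjusted p 0.00697). Its GFP-positive values were widely spread, with replicate 3 the lowest, and the populations did not overlap.

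Gbp7 read 87.0, 76.5 and 56.4 on the GFP-positive arrays, against 26.4, 22.0 and 19.1 on the GFP-negative arrays (1.20 ± 0.15, adjusted p 0.00229). Gbp6 read 69.5, 67.6 and 43.7 on the GFP-positive arrays, against 22.5, 15.97 and 17.3 on the GFP-negative arrays (1.13 ± 0.16, adjusted p 0.00407). In both, replicate 3 was the lowest GFP-positive array and still lay above all GFP-negative arrays. A dimmer Gbp7 probe set on chip A also passed, at 0.39. Irgm2, a regulatory GTPase that controls the others, read 91.2, 74.4 and 73.7 on the GFP-positive arrays, against 32.2, 25.6 and 26.8 on the GFP-negative arrays (1.11 ± 0.10, adjusted p 0.00122). Its dimmer probe set on chip C did not pass, at 0.15. Ifi47 read 39.1, 26.5 and 22.5 on the GFP-positive arrays, against 13.7, 15.9 and 14.6 on the GFP-negative arrays (0.55 ± 0.14, adjusted p 0.0477), with all 6 values below the array medians of the chip. Among the called genes of other families, Ifitm2, Stat6 and Oas1c also had all 6 values below the array medians of their chips.

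The genes beside these on the chromosome did not all pass. On chromosome 3, Gbp7 and Gbp3 lie next to Gbp2b and Gbp2 among the measured members, whose differences were 0.29 and 0.07. On chromosome 5, Gbp9 and Gbp6 lie beside Gbp8, a dim probe set at 0.30. On chromosome 11, Irgm2 and Ifi47 passed, whereas Irgm1 (-0.03) and Igtp (0.15), which regulate the same pathway, did not.

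Irgm2 and Igtp carry closely similar letters around their ISRE-like match. The stretches of 40 bases are shown with those of Isg15 and Ifit1, which did not pass and were chosen after their values were seen.
Irgm2, chr11:58214898-58214937, + strand: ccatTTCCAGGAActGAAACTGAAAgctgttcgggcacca
Igtp, chr11:58199507-58199546, + strand: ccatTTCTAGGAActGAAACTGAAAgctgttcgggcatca
Isg15, chr4:156200872-156200911, - strand: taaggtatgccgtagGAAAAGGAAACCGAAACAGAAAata
Ifit1, chr19:34640770-34640809, + strand: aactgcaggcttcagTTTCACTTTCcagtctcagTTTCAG
The Irgm2 and Igtp stretches share 38 of 40 bases and the letters of the ISRE-like match, while the GAS-like matches differ in 1 of the bases left free, with expression differences of 1.11 and 0.15. Isg15 has overlapping ISRE-like matches at -78, -72 and -66 and an expression difference of 0.30. Ifit1 has separate matches at -104 and -85, the second running past the end of the stretch, and an expression difference of 0.06.

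**Figure D2:**
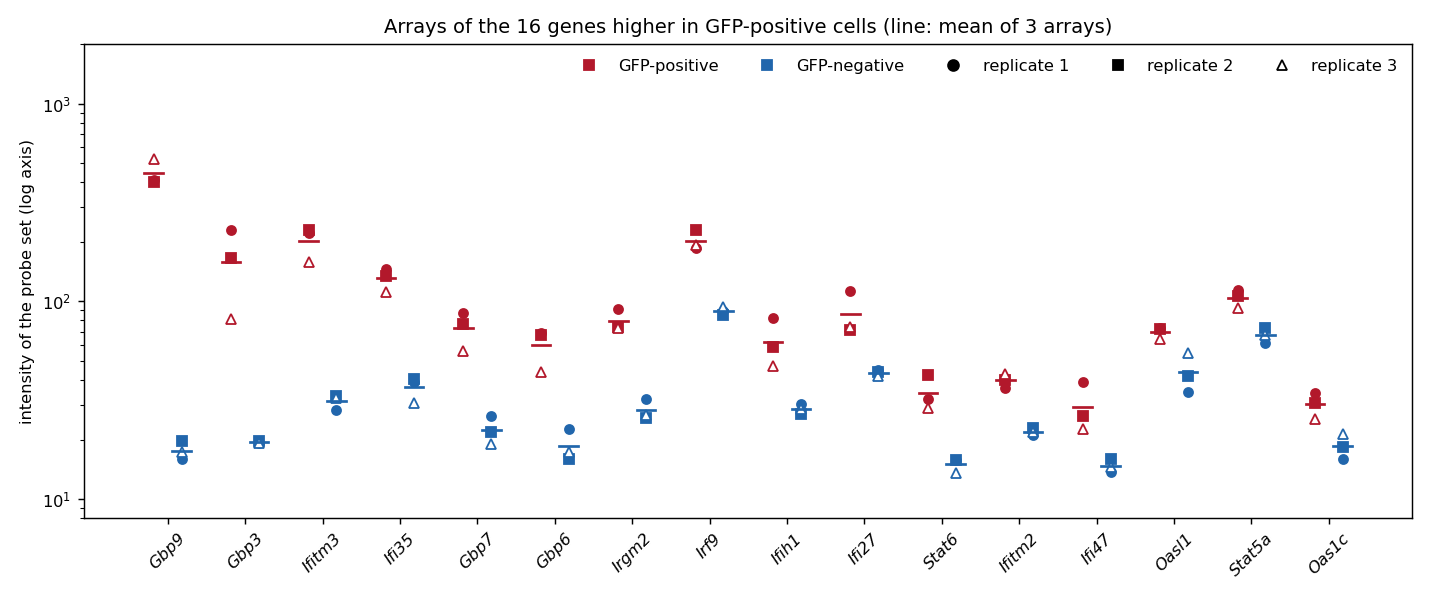
Intensity of each of the 16 genes higher in GFP-positive cells on the 3 GFP-positive (red, left) and 3 GFP-negative (blue, right) arrays of its chip, on a log axis, with lines at the means; open triangles are replicate 3. Every GFP-positive array lies above every GFP-negative array, and replicate 3 is the lowest GFP-positive array in 12 of the 16, or 75.0%, against 52.3% of all 1579 genes higher in GFP-positive cells.

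The IFITM proteins sit in membranes and hinder virus entry, Ifitm3 at endosomes. Ifitm3 read 221, 230.1 and 157 on the GFP-positive arrays, against 28.4, 33.2 and 32.5 on the GFP-negative arrays (2.19 ± 0.15, adjusted p 0.000414). Ifitm2 read 36.7, 39.8 and 42.9 on the GFP-positive arrays, against 21.1, 22.9 and 21.8 on the GFP-negative arrays (0.56 ± 0.07, adjusted p 0.00395). These were the 2 of 5 IFITM genes that passed, against 9.89% of all genes higher. In both, all GFP-positive arrays lay above the GFP-negative ones. Ifitm1 read 67.2, 55.5 and 49.7 on the GFP-positive arrays, against 39.1, 52.8 and 41.1 on the GFP-negative arrays (0.28, adjusted p 0.209), where the populations overlapped. Ifitm6 (0.01) and Ifitm10 (0.03) differed little on this scale.

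Ifi35, a leucine zipper protein that binds Nmi, read 146, 134 and 112 on the GFP-positive arrays, against 39.3, 40.7 and 30.5 on the GFP-negative arrays (1.47 ± 0.13, adjusted p 0.000869). Ifih1, the sensor of long double-stranded RNA called MDA5, read 82.1, 58.8 and 46.9 on the GFP-positive arrays, against 30.1, 26.9 and 28.7 on the GFP-negative arrays (0.80 ± 0.17, adjusted p 0.0227), and its dimmer probe set did not pass, at 0.25. Ifi27, a small hydrophobic membrane protein, read 113, 71.4 and 74.0 on the GFP-positive arrays, against 44.8, 44.1 and 41.7 on the GFP-negative arrays (0.75 ± 0.16, adjusted p 0.0240). None of these 3 genes overlapped between the populations. The related Ifi27l2b (0.40, adjusted p 0.121) and Ifi27l2a (-0.01) did not pass, nor did Ifi30, a lysosomal thiol reductase (0.02).

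Those OAS proteins that are active enzymes make oligoadenylates that switch on RNase L. Enzyme activity was not measured here. Of 8 OAS genes, 2 passed, Oasl1 and Oas1c, against 9.89% of all genes higher. Oasl1 read 73.5, 72.1 and 64.6 in GFP-positive cells against 34.8, 42.0 and 54.8 in GFP-negative cells (0.54 ± 0.14, adjusted p 0.0371). Oas1c read 34.4, 30.7 and 25.6 in GFP-positive cells against 15.9, 18.3 and 21.5 in GFP-negative cells (0.42 ± 0.11, adjusted p 0.0423). The Oas1 genes are near-identical copies and their probe sets may share transcripts. Oas3 read 214, 186 and 192 on the GFP-positive arrays, against 197, 207 and 213 on the GFP-negative arrays (-0.06), with the populations overlapping. The differences of the others were 0.30 for Oas1b and Oas2, 0.16 for Oas1f, 0.07 for Oas1g and 0.04 for Oasl2.

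Several widely used interferon markers did not pass the test. The IFIT proteins, which bind viral RNA, had 0 of 5 genes past the threshold, 0 at an unadjusted p under 0.05, and a median difference of 0.01. Over all genes 9.89% were higher past the threshold and 18.1% at an unadjusted p under 0.05. Ifit1 had a 95% interval of -0.10 to 0.23 on this scale. Ifit2 (0.14), Ifit3 (0.01) and Ifit1bl1 (-0.02) overlapped between the populations, as Ifit1 did. Ifit1bl2 read 97.1, 106 and 90.8 on the GFP-positive arrays, against 110, 105 and 113 on the GFP-negative arrays (-0.14, adjusted p 0.327). Isg15, a ubiquitin-like protein attached to other proteins, read 45.9, 41.0 and 53.2 on the GFP-positive arrays, against 33.7, 35.7 and 34.5 on the GFP-negative arrays (0.30, adjusted p 0.0706), without overlap. The dynamin-like GTPases Mx1 (0.03) and Mx2 (0.18), Usp18, which removes Isg15 (0.19), Isg20, an exonuclease (0.30), and the 6 p200 genes, DNA-binding proteins (Ifi202b, Ifi203, Ifi204, Ifi207, Ifi209 and Ifi213, -0.14 to 0.13, 0 at an unadjusted p under 0.05), did not pass. A dimmer Ifi204 probe set was at 0.40, against -0.13 for the one used, with every GFP-positive array above every GFP-negative one, and did not pass either (adjusted p 0.0790). Most of these probe sets were dim, and with no detection calls a dim intensity may be background.

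Of the transcription factors, 1 of 7 IRFs and 2 of 6 STATs were higher in GFP-positive cells, against 9.89% of all genes. Irf9, the DNA-binding part of the type I interferon complex, read 187, 230.1 and 192 on the GFP-positive arrays, against 89.3, 85.5 and 93.2 on the GFP-negative arrays (1.05 ± 0.10, adjusted p 0.00111). Each GFP-positive array lay above the highest GFP-negative one. Irf1, an activator of antigen presentation genes, read 195, 275 and 271 on the GFP-positive arrays, against 201, 138 and 173 on the GFP-negative arrays (0.49, adjusted p 0.129), with overlap. Irf7, which turns on interferon genes after sensing, read 84.6, 91.4 and 67.4 on the GFP-positive arrays, against 65.6, 53.6 and 50.9 on the GFP-negative arrays (0.42, adjusted p 0.113). With GFP-positive replicate 3 left out it passed, at 0.52 (adjusted p 0.0181). Its arrays did not overlap in either case. This Irf7 probe set can by its name match several transcripts, and the other 2 were at 0.15 and 0.04 and did not pass. Irf8, a factor of myeloid and lymphoid cells, read 42.6, 49.4 and 49.7 on the GFP-positive arrays, against 42.0, 40.3 and 43.7 on the GFP-negative arrays (0.12). Irf3, which responds to RNA and DNA sensing (0.18), Irf4 (0.13) and Irf5 (0.03) did not pass.

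Stat6, the interleukin-4 signal transducer, read 32.1, 42.4 and 28.8 on the GFP-positive arrays, against 15.7, 15.8 and 13.6 on the GFP-negative arrays (0.69 ± 0.11, adjusted p 0.0100). Stat5a, which serves cytokines and growth hormone, read 114, 107 and 92.7 on the GFP-positive arrays, against 61.3, 73.6 and 67.6 on the GFP-negative arrays (0.53 ± 0.10, adjusted p 0.0160), while its neighbour Stat5b read 151, 186 and 194 on the GFP-positive arrays, against 154, 197 and 157 on the GFP-negative arrays (0.06). The Stat5a probe set can by its name match several transcripts, and another one for the gene was at 0.40 and passed. The populations overlapped for Stat5b and not for Stat5a. Stat2, the partner of IRF9, read 74.6, 85.4 and 539 on the GFP-positive arrays, against 96.8, 145 and 105 on the GFP-negative arrays (0.40 ± 0.67), where replicate 3 alone was high. Without that array the difference was -0.44 (adjusted p 0.104), and a second Stat2 probe set read 60.1, 66.7 and 57.6 on the GFP-positive arrays, against 60.1, 51.6 and 50.7 on the GFP-negative arrays (0.14). Stat3, which carries interleukin-6 signals, read 292, 255 and 142 on the GFP-positive arrays, against 258, 196 and 237 on the GFP-negative arrays (-0.05), where replicate 3 was the lowest array. The 4 Stat3 probe sets disagreed: one on chip A read 77.4, 85.5 and 258 on the GFP-positive arrays, against 121, 119 and 106 on the GFP-negative arrays, where replicate 3 was the highest. Stat4 was at 0.15.

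**Figure D3:**
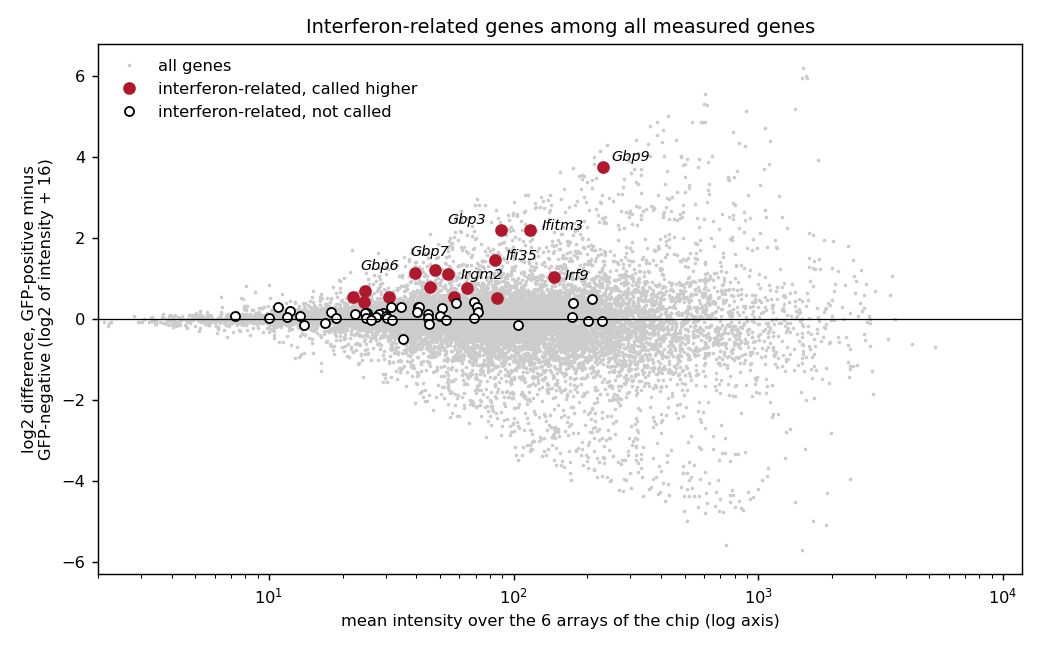
Difference in log2 of intensity plus 16 against mean intensity (log axis) for all 15964 genes (grey) and the 60 interferon-related genes. The 16 called genes (red) lie above 0, and the 44 others (open) run from -0.51 (Isg20l2) to 0.49 (Irf1). The levels of different probe sets are not comparable as amounts of RNA.

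The calls differed in how they held with fewer arrays. Of the 16 genes, 9 passed in every setting that measured them and whichever array was left out (Gbp3, Gbp6, Gbp7, Gbp9, Ifi35, Ifitm2, Ifitm3, Irf9 and Irgm2). Oas1c was lost without every array except GFP-positive replicate 3, Ifi47 without GFP-positive replicate 2 or any GFP-negative array, and Oasl1 without GFP-positive replicate 1 or 2 or GFP-negative replicate 1 or 2. Ifih1 was lost without GFP-positive replicate 2 or any GFP-negative array, Ifi27 without any GFP-negative array, Stat5a without GFP-positive replicate 2 or GFP-negative replicate 1 or 3, and Stat6 without GFP-negative replicate 3. Over the 6 arrays left out in turn, the difference of Oas1c ran from 0.35 to 0.49 (highest adjusted p 0.129), that of Ifi47 from 0.40 to 0.66 (0.156) and that of Oasl1 from 0.42 to 0.66 (0.115). That of Ifih1 ran from 0.62 to 0.94 (0.0850), that of Ifi27 from 0.58 to 0.86 (0.0947), that of Stat5a from 0.47 to 0.60 (0.0672) and that of Stat6 from 0.58 to 0.77 (0.0510). All 7 stayed above 0 whichever array was left out. Without GFP-positive replicate 3, Irf7, Ifi27l2b and Oas1b became higher and Isg20l2 became lower, at -0.83 (adjusted p 0.0191), against -0.51 with all arrays. Isg20l2, a nuclease related to Isg20, read 13.6, 20.4 and 47.8 on the GFP-positive arrays, against 56.3, 41.6 and 31.4 on the GFP-negative arrays, and only replicate 3 reached into the GFP-negative range. A second Isg20l2 probe set lay the other way, at 0.25 (adjusted p 0.133), with every GFP-positive array above every GFP-negative one.

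The rest of the pathway was read from lists of ligands, receptors, inhibitors, sensors and further targets. For comparison, 9.89% of all genes were higher and 12.2% lower, and 18.1% and 18.2% at an unadjusted p under 0.05. Of 19 listed interferon genes 9 were measured. Of these 0 passed, also at an unadjusted p under 0.05, and the brightest, Ifna9, was at -0.06. The probe sets of Ifna2, Ifna4, Ifna5, Ifna7, Ifna9 and Ifnab can by their names match several transcripts. Those of Ifnb1, Ifng and Ifna11 were below the array medians of the chip on every array. Of 10 receptor and JAK kinase genes, 4 were higher in GFP-positive cells and 0 lower. Il10rb, a receptor chain shared by interleukin-10 and lambda interferons, read 1819, 2324 and 2094 on the GFP-positive arrays, against 139, 143 and 112 on the GFP-negative arrays (3.83 ± 0.13, adjusted p 4.18e-05). Ifnar2, the type I interferon receptor chain, read 174, 185 and 125 on the GFP-positive arrays, against 48.9, 35.3 and 38.2 on the GFP-negative arrays (1.63 ± 0.17, adjusted p 0.00163), and the kinases Jak3 and Tyk2 were at 1.52 and 0.67. Ifnar1 was the brightest that did not pass (0.73, adjusted p 0.181).

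**Figure D4:**
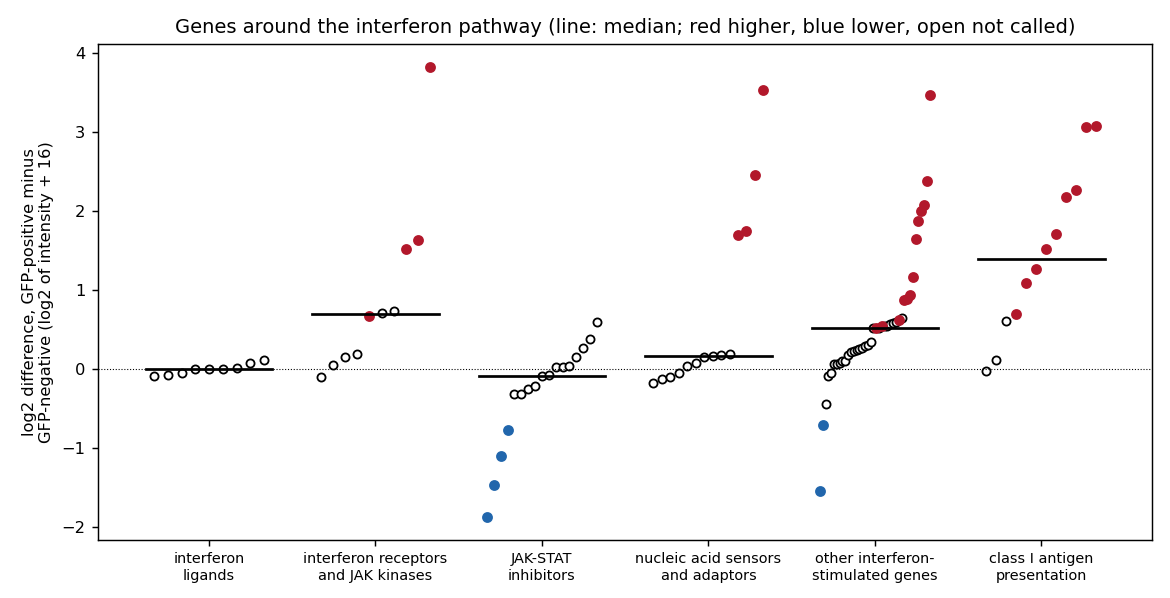
Difference in log2 of intensity plus 16 for the genes of 6 lists around the interferon pathway, each point a gene and each line the median. Red points are higher in GFP-positive cells, blue points lower and open points did not pass; the ligands have 0 coloured points and the inhibitors have only blue ones.

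Of 17 JAK-STAT inhibitors 4 were lower and 0 higher: Socs7 (-1.88), Pias2 (-1.47), Ptpn2 (-1.10), a phosphatase of JAK kinases, and Pias1 (-0.78), while Ptpn11, the brightest that did not pass, was at -0.25. Among 14 sensors and adaptors 4 were higher and 0 lower, led by Sting1, the adaptor for cytosolic DNA (3.53), Trim25, the ubiquitin ligase for RIG-I (2.46), and Ddx58, which is RIG-I (1.74), and Tbk1 was at -0.13. Of 40 other interferon-stimulated genes 13 were higher, led by Ly6e (3.47), Nmi, the partner of Ifi35 (2.38), and Trim34a (2.08), and 2 lower, Plscr1 (-1.55) and Trafd1 (-0.71). The brightest that did not pass was Tor3a (0.56). Of 12 class I antigen presentation genes 9 were higher and 0 lower, led by B2m (3.08), Psmb8 (3.07) and H2-K1 (2.26), and Psme1 was the brightest that did not pass (0.60). Without GFP-positive replicate 3 the counts of higher and lower genes were 5 and 0 for receptors and kinases, 1 and 5 for inhibitors, 4 and 0 for sensors, 18 and 2 for the other genes and 10 and 0 for class I, with 15% of all genes higher and 17.4% lower.

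Other cell types respond to interferon too, and their markers were read in the same way. The counts below stand against the shares of all genes. Past the threshold these were 9.89% higher and 12.2% lower, and without adjustment 18.1% and 18.2%. For 22.3% of all genes the GFP-positive arrays lay wholly above the GFP-negative ones. Of 15 microglia and macrophage markers 2 were higher, Fcer1g (1.5) and C1qb (0.78), and 7 were below the chip median on every array, among them Aif1, Itgam and P2ry12. Their summed intensity was 709 to 1599 on the GFP-positive arrays, against 598 to 631 on the GFP-negative arrays, and Csf1r read 37.3, 41.2 and 930 in GFP-positive cells against 94.3, 112 and 108 in GFP-negative cells. Of 9 lymphocyte markers 1 was higher, Ms4a1 (0.38), 5 were higher at an unadjusted p under 0.05, and 7 had every GFP-positive array above every GFP-negative one. Their sum was 511 to 527 in GFP-positive cells against 389 to 427 in GFP-negative cells. Of 8 granulocyte and 6 erythroid and platelet markers 0 passed. At an unadjusted p under 0.05, 2 granulocyte markers were higher, and of the erythroid and platelet markers 2 were higher and 1 was lower, with granulocyte sums of 292 to 324 in GFP-positive cells against 266 to 302 in GFP-negative cells, and erythroid and platelet sums of 350 to 383 in GFP-positive cells against 316 to 341 in GFP-negative cells. In GFP-positive cells 5 of 7 Müller glia, 2 of 8 pericyte, 3 of 6 photoreceptor and 2 of 5 astrocyte markers were lower and 0 higher. Among those that did not pass, Glul was at 1.03, with replicate 3 alone high, and Gfap was at 0.36 with every GFP-positive array above every GFP-negative one. In all, 3 of 6 photoreceptor and 3 of 5 astrocyte markers lay above 0. None of the markers was at 0, and their part in the interferon-related differences was not tested.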

How the data were processed

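GFP-positive and GFP-negative cells of pooled mouse retinas were profiled on 3 chips, and sample titles gave each array's group and number. The authors deposited 1 linear intensity for each probe set and array. Their probe summary, background correction and normalization are not given in the sources used here. They could alter any difference. Array medians differed by at most 0.13 on the log2 scale within a chip, so the intensities were kept as deposited. Gene symbols came from the platform annotation: 10833, 10581 and 7717 had 1 symbol on chips A, B and C, and 396, 178 and 150 had several and were not named. Detection calls were not used here.

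Each chip was fitted alone on log2 of intensity plus 16 by limma 3.58.1 under R 4.3.3, using lmFit with eBayes, two-sided p-values, Benjamini-Hochberg adjustment over the chip and a threshold of 0.05. The offset understates differences of dim probe sets, and levels of different probe sets are not comparable as amounts of RNA; brightness served only to choose probe sets and the genes named. The fit was tested on simulated data. Every called gene is named; arrays are given for the 8 largest differences, the 6 brightest uncalled genes and named interferon genes, and each pathway list gives up to 3 called genes per direction and its brightest uncalled gene. Members, lists and families were chosen with earlier results of these data known. Alternatives were other offsets, normalizations, filters and probe set rules, limma-trend, array weights, a replicate block, adjustment over all chips and each array left out. Leaving GFP-positive replicate 3 out of the pathway lists was added after seeing the data.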

Additional observations from a re-analysis of the deposited data

How the results depend on the processing

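The direction of all 16 called genes was the same under each of the 18 alternatives that measured them. The count of higher genes was 14 with an offset of 64, with quantile normalization, with median-centred arrays and with adjustment over 3 chips, each losing Ifi47 and Oas1c, 16 with an offset of 1 and 17 with limma-trend. Array weights gave 22 higher and 1 lower, Isg20l2 at -0.67, and the cause was not tested. The genes gained as higher with array weights were Gbp8, Ifi27l2b, Irf7, Oas1b, Ifitm1 (0.34, adjusted p 0.0459) and Isg15 (0.22, adjusted p 0.0439). Restricting to a mean intensity of at least 32 gave 12 higher of 34 genes, of which 7 had GFP-negative means under 32 and met the minimum only through the GFP-positive arrays, so this count is no support. Omitting probe sets that can match several transcripts gave 15 of 56. Leaving out 1 array at a time gave 10 to 19 higher and 0 to 1 lower. With the replicate number as a block 12 were higher and Ifi47, Oas1c, Oasl1 and Stat5a were lost. The labels do not say whether same-numbered arrays are paired. Deviations of same-numbered arrays from their group means correlated at -0.37 to 0.29, and of differently numbered arrays at -0.41 to 0.45. Within each group the deviations of the 3 arrays sum to 0, so these correlations cannot settle the pairing. Of the 44 uncalled genes, 18 changed sign in at least 1 setting. The intervals of 42 of the 44 lay within -1 and 1, the exceptions being Stat2 and Isg20l2. The offset of 16 compresses differences of dim probe sets, and 22 of the 44 had a mean intensity under 32. For those genes the range says little. The number of arrays and signal near background limit what the dim genes can show.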
